A study of Mus musculus with 6 samples.

Results

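The splicing factor and hnRNP genes described here are the 65 rows of the expression table whose symbols begin with *Srsf*, *Hnrnp*, *Snrp*, *Sf3a*, *Sf3b*, *U2af* or *Prpf*, with *Snrpn* left out, of 14647 genes in all. They fall into 4 classes by name, namely 10 SR protein genes (*Srsf*), 19 hnRNP genes, 12 snRNP genes and 24 genes of the SF3, U2AF and PRPF groups. All 65 passed the filter of a mean of at least 0.5 RPKM (reads per kilobase of gene, scaled to library size) over the libraries, as did 13547 genes of the whole table. Of the members, 64 were annotated as protein coding and the other, *Snrpert*, as a processed pseudogene. *Srsf1*, *Hnrnpu* and *Sf1* were not analysed here.

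Most mouse genes are transcribed with introns, which the spliceosome removes. SR proteins and hnRNPs bind the pre-mRNA and promote or repress the use of nearby splice sites, snRNPs are the RNA and protein particles that recognise the splice sites, and SF3, U2AF and PRPF proteins select the 3′ splice site and branch point and assemble the catalytic core. Most are used in every cell, but heterozygous mutations of several (human SF3B4, SF3B2, SNRPB and EFTUD2) are known to cause malformations of structures derived from the pharyngeal arches.

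By the study's methods, RNA was taken from the whole pharyngeal region of mouse embryos at embryonic day (E) 9.5, 3 *Pax9*-null and 3 stage-matched wild-type controls of the C57Bl/6J strain, with the question of which transcripts change when *Pax9*, a transcription factor of the pharyngeal endoderm, is lost. The null allele is constitutive, so that every tissue of the embryo carried it, and the dissection kept every cell type from below the first arches to the base of the heart. The extraction labels instead describe sorted cells and Smart-seq2 libraries. The methods are followed here, and the cell types behind each level depend on which is right. In such bulk tissue, fewer cells of one type and less RNA per cell cannot be told apart. The *Pax9*-null libraries held 11632551 to 11827284 reads on the genes of the table, and the wild-type libraries 12083882 to 12681317. Reads on a member numbered from 25 in the library with fewest for *Srsf12* to 19609 in the library with most for *Hnrnpk*. The counts are per gene, so that a change of isoform, including the inclusion of the exons by which many SR protein genes limit their own expression, was not measured.

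*Pax9* (ENSMUSG00000001497) checked the labels. It measured 0.743, 0.644 and 0.666 RPKM in *Pax9*-null replicates 1 to 3, and 1.55, 1.64 and 1.94 RPKM in wild-type replicates 1 to 3. All *Pax9*-null values were below all wild-type values (log2 fold change −1.32, standard error 0.19, adjusted *P*=0.0155 by limma).

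Several libraries stood apart from others of their genotype. The summed level of 13 cardiomyocyte marker genes was 88.5 RPKM in wild-type replicate 3 and between 1436 and 1853 RPKM in the other 5 libraries, and the most abundant of these genes, *Myl7*, measured 23.4 RPKM there and between 456 and 738 RPKM elsewhere. Of these 13 genes, 0 were called, with a median log2 fold change of 1.07. Markers of the neural tube and neurons (14 genes, led by *Tubb3*) summed to 259 RPKM in the same library and to between 137 and 173 RPKM in the others, with 0 called higher and 2 lower. Erythroid markers, of which 11 of 12 had a row (*Ahsp* did not), summed to 5024 and 4575 RPKM in *Pax9*-null replicates 1 and 3 and to between 2457 and 2694 RPKM in the other 4 libraries, and 2 were called higher. Their most abundant gene, *Hbb-y*, measured 1975 and 1751 RPKM in those 2 libraries and between 996 and 1035 RPKM in the rest. Endothelial markers, led by *Tek*, summed to between 61.1 and 74.1 RPKM in *Pax9*-null and between 70.3 and 114 RPKM in wild-type libraries, and 4 of 9 were called lower. All 10 markers of the pharyngeal endoderm, led by *Krt18*, and all 10 of neural crest mesenchyme, led by *Twist1*, were present, with 0 called and with 1 called higher and 1 lower. None of 7 hepatocyte markers had a row. For scale, 14.7% of all tested genes were called higher and 12.0% lower, at an adjusted *P* of at most 0.1 by limma. The part of these cell types in the results below was not tested. Wild-type replicate 1 stood apart in the members themselves, as the highest of the 6 libraries for 20 of them and the lowest for 27, against 12 and 1 for wild-type replicate 2 and 1 and 5 for wild-type replicate 3. *Pax9*-null replicate 1 was next, the highest for 16 and the lowest for 17.

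Of the 65 members, 24 (36.9%) differed between genotypes at an adjusted *P* of at most 0.1 by limma, against 26.7% of all tested genes. Higher in *Pax9*-null embryos were 11 members (16.9%, against 14.7% of all tested genes), and lower were 13 (20%, against 12.0%). The changes were small, with log2 fold changes from −0.61 to 0.55 over the 65 members, a median of 0.02, and a median of 0.00 over all tested genes. In 37 members the libraries of the 2 genotypes did not overlap, against 41.9% of all tested genes. In 18 of them the *Pax9*-null libraries were the higher (21.8% of all tested genes), and in 19 the lower (20.1%). The smallest *P* of an exact permutation test of 3 against 3 libraries is 0.1, and the calls therefore lean on limma's sharing of variance among genes.

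The classes held different numbers of calls in each direction, a difference that was not tested. Among SR protein genes 3 were called higher (30%, against 14.7% of all tested genes) and 1 lower (10%, against 12.0%), and among snRNP genes 6 higher (50%) and 1 lower (8.33%). Among hnRNP genes 1 was called higher (5.26%) and 3 lower (15.8%), in all 21.1% against 26.7% of all tested genes. Among SF3, U2AF and PRPF genes 1 was called higher (4.17%) and 8 lower (33.3%). The median log2 fold changes of these classes were 0.23, 0.30, 0.01 and −0.18, and with quantile normalization they were 0.07, 0.15, −0.19 and −0.25. Summed over a class, SR protein genes measured between 1055 and 1162 RPKM in the *Pax9*-null libraries and between 735 and 953 RPKM in the wild-type ones, and snRNP genes between 1018 and 1156 RPKM and between 736 and 971 RPKM. The SF3, U2AF and PRPF genes summed to between 1051 and 1088 RPKM in *Pax9*-null and between 1105 and 1191 RPKM in wild-type libraries. The genotypes did not overlap in these 3 sums, whereas the hnRNP sums did, at between 2418 and 2564 RPKM and between 2328 and 2597 RPKM. The sum over the whole table did not overlap either, at between 316052 and 332546 RPKM in *Pax9*-null and between 272065 and 304864 RPKM in wild-type libraries. Wild-type replicate 1 had the lowest sum for SR protein, hnRNP and snRNP genes and the highest for SF3, U2AF and PRPF genes.

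**Figure D1:**
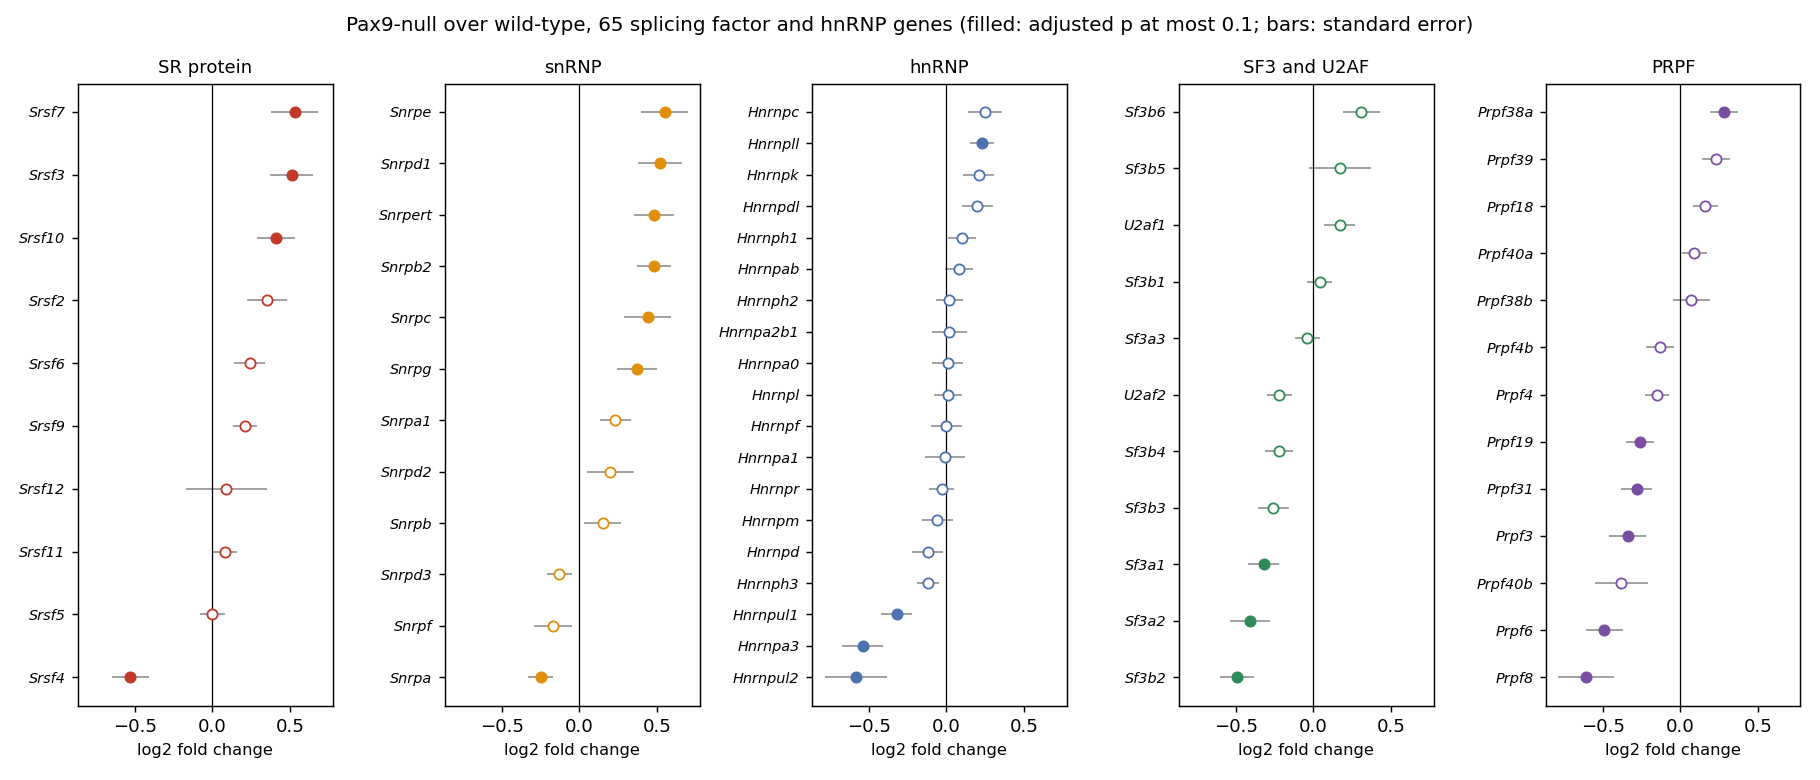
Log2 fold change (*Pax9*-null over wild-type, horizontal axis) of each of the 65 members by class, with the SF3, U2AF and PRPF class drawn as SF3 with U2AF and PRPF. Bars are standard errors by limma, and filled points mark the 24 members with an adjusted *P* of at most 0.1, which lie mostly above 0 among SR protein and snRNP genes and below 0 among SF3 and PRPF genes.

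Which members passed the test depended on single libraries and on the scaling. Without *Pax9*-null replicate 1 none of the 24 was left (0 members called, against 2.22% of all tested genes, with 16 members at an unadjusted *P* below 0.05), and without *Pax9*-null replicate 3 again 0 (against 1.29%, with 21 at an unadjusted *P* below 0.05). Without wild-type replicate 1, 6 members were called higher and 5 lower (16.9% in all, against 13.3% of all tested genes), and without wild-type replicate 3, 7 and 7 (21.5%, against 15.8%). Without *Pax9*-null replicate 1 the class medians were 0.20 for SR protein genes, 0.28 for snRNP genes, −0.01 for hnRNP genes and −0.15 for SF3, U2AF and PRPF genes, and without *Pax9*-null replicate 3 they were 0.21, 0.24, 0.03 and −0.17. *Srsf3* was at 0.47 and 0.50 under these omissions and *Sf3b2* at −0.45 and −0.46, close to their log2 fold changes over all 6 libraries. Without wild-type replicate 1 the class medians were 0.18 for SR protein genes, 0.22 for snRNP genes, −0.03 for hnRNP genes and −0.13 for SF3, U2AF and PRPF genes. After quantile normalization of the libraries 4 members were called higher (against 10.6% of all tested genes) and 16 lower (against 12.9%). After median centring 13 were called higher and 10 lower (35.4% in all, against 26.4% of all tested genes).

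**Figure D2:**
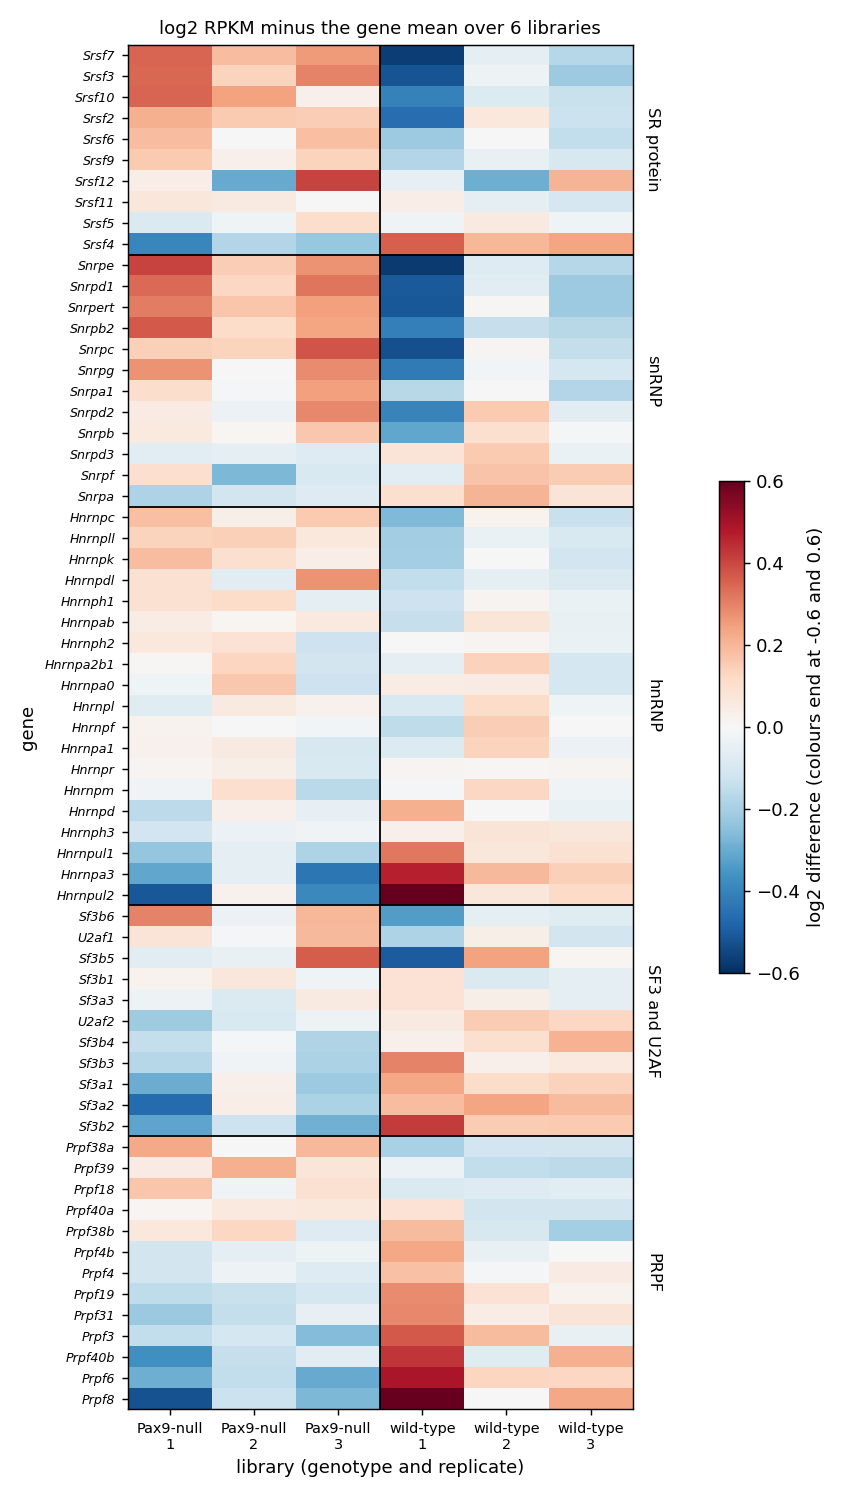
Log2 RPKM of each member in each of the 6 libraries minus the mean of that gene over the 6, with red above and blue below the mean and colours ending at −0.6 and 0.6. Rows are genes by class and columns are libraries. Wild-type replicate 1 holds the strongest colours in each class, and is the highest or lowest library for 47 of the 65 members.

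Promoters are shown for 5 members with called changes, 2 that rose together (*Srsf3* and *Srsf7*) and 3 that fell together (*Prpf6*, *Sf3b2* and *Hnrnpa3*), picked after their values were seen. Each line gives the 150 bases before the transcription start in RefSeq (GRCm38.p6), 5′ to 3′ on the gene's strand. Capitals mark matches on either strand to CCAAT (the CCAAT box), GGGCGG (the GC box), CCGGAAG (the core of sites for ETS factors) and TATAAA (the TATA box). The intervals are chr17:29032510-29032659 (plus strand), chr17:80207306-80207455 (minus), chr2:181601169-181601318 (plus), chr19:5295458-5295607 (minus, one of 2 starts listed) and chr2:75659109-75659258 (plus), in the order of the lines. The interval of *Prpf6* lies inside the longer gene of the annotation used for expression. That of *Srsf3* runs into its gene as annotated there, with the TATA box inside, and that of *Srsf7* reaches the edge of its gene. In *Hnrnpa3* a pair of GC boxes share bases.
Srsf3: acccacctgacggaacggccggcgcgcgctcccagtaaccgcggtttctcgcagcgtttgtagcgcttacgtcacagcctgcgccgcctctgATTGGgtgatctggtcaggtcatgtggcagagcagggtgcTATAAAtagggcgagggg
Srsf7: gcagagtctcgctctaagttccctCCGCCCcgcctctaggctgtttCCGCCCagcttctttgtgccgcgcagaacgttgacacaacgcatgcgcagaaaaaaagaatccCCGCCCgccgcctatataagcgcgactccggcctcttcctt
Prpf6: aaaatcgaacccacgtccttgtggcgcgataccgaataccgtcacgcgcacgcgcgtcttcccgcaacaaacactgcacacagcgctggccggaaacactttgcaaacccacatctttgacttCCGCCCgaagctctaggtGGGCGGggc
Sf3b2: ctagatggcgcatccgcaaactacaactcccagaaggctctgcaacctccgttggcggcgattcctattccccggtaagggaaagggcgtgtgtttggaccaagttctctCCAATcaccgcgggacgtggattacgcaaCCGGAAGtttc
Hnrnpa3: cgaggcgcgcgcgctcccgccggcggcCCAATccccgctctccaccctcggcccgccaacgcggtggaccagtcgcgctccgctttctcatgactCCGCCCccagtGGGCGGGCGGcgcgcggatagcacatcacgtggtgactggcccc
A promoter was matched by symbol for 55 members. The ETS core was found in 14 of them (25.5%), against 13.0% of the 9587 tested genes with a promoter and 5.52% of all 32851 promoter windows. It stood before 3 of 8 members called higher, 5 of 12 called lower and 6 of 35 not called. The CCAAT box was found in 26 members (47.3%, against 32.3% of tested genes and 24.5% of all windows), the GC box in 32 (58.2%, against 59.7% and 28.6%) and the TATA box in 3 (5.45%, against 4.15% and 7.57%). The palindromic core of NRF1 sites was found in 1 member (1.82%, against 1.62% and 0.645%). These are matches of letters in a window and not measured binding.

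SR proteins carry repeats of arginine and serine and mostly promote the inclusion of exons. Among their 10 genes, *Srsf7*, *Srsf3* and *Srsf10* were called higher, *Srsf4* was called lower, and the other 6 did not pass the test, with log2 fold changes from 0.00 to 0.35. *Srsf7* and *Srsf3* encode small SR proteins that also serve as adaptors of mRNA export. *Srsf7* (chr17:80200080-80207307, minus strand, GRCm38), the most abundant SR protein gene, measured 363, 324 and 341 RPKM in *Pax9*-null replicates 1 to 3 and 193, 275 and 254 RPKM in wild-type replicates 1 to 3. All *Pax9*-null libraries were above all wild-type ones, with wild-type replicate 1 the lowest (1.44-fold, log2 fold change 0.53, standard error 0.15, adjusted *P*=0.0572 by limma). *Srsf3* (chr17:29032628-29043373, plus strand) measured 263, 227 and 255 RPKM in *Pax9*-null and 145, 203 and 178 RPKM in wild-type libraries. The 6 libraries fell in the same order as for *Srsf7*, and the rise was 1.43-fold (log2 fold change 0.51, standard error 0.14, adjusted *P*=0.0546 by limma). *Srsf10*, whose product represses splicing when it lacks phosphate, had a log2 fold change of 0.41 (adjusted *P*=0.0631 by limma).

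*Srsf4* (chr4:131873617-131901706, plus strand), which encodes one of the larger SR proteins, moved the other way. It measured 3.84, 4.45 and 4.30 RPKM in *Pax9*-null and 6.45, 5.79 and 5.93 RPKM in wild-type libraries. Its highest *Pax9*-null value was well below its lowest wild-type value (0.693-fold, log2 fold change −0.53, standard error 0.12, adjusted *P*=0.0420 by limma), although 43.0% of its exonic bases overlap another gene. *Srsf5*, which encodes a splicing activator related to *Srsf4*, had the second lowest fold change of the class and measured 47.5, 49.4 and 54.2 RPKM in *Pax9*-null and 49.6, 52.3 and 49.5 RPKM in wild-type libraries. The genotypes overlapped, with a log2 fold change of 0.00 (standard error 0.08, adjusted *P*=0.973 by limma). Lowest in level was *Srsf12*, at a mean of 0.882 RPKM and a log2 fold change of 0.09 (standard error 0.26).

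The snRNP genes encode the proteins of the U snRNPs. Of the 7 genes of the Sm ring, which encircles the snRNA of U1, U2, U4 and U5, *Snrpe*, *Snrpd1* and *Snrpg* were called higher (42.9%, against 14.7% of all tested genes) and 0 lower (against 12.0%), with a median log2 fold change of 0.20. *Snrpe* (chr1:133603871-133610291, minus strand) measured 206, 172 and 187 RPKM in *Pax9*-null and 104, 147 and 138 RPKM in wild-type libraries. It rose most of all members (1.46-fold, log2 fold change 0.55, standard error 0.15, adjusted *P*=0.0525 by limma), with wild-type replicate 1 the lowest library. *Snrpd1*, the most abundant gene of the class, measured 337, 290 and 332 RPKM in *Pax9*-null and 188, 254 and 229 RPKM in wild-type libraries. Again all *Pax9*-null libraries were the higher ones, by 1.44-fold (log2 fold change 0.52, standard error 0.14, adjusted *P*=0.0510 by limma). *Snrpg* had a log2 fold change of 0.37 (adjusted *P*=0.0974 by limma).

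Not all Sm genes moved this way. *Snrpf* (chr10:93583029-93589706, minus strand) measured 28.8, 22.2 and 25.2 RPKM in *Pax9*-null and 25.7, 30.2 and 29.9 RPKM in wild-type libraries. The genotypes overlapped (log2 fold change −0.17, standard error 0.12, adjusted *P*=0.323 by limma), and 85.4% of its exonic bases overlap another gene, so that its level is uncertain. *Snrpd3*, *Snrpb* and *Snrpd2* had log2 fold changes of −0.13, 0.15 and 0.20 and did not pass the test. Calls were also mixed among genes for proteins of a single snRNP, where differences between genes were not tested. *Snrpb2*, of U2, measured 86.1, 72 and 78.8 RPKM in *Pax9*-null and 50.3, 60.6 and 59.5 RPKM in wild-type libraries, and its partner *Snrpa1* did not pass the test (log2 fold change 0.23). The genotypes were well apart for *Snrpb2* (1.39-fold, log2 fold change 0.48, standard error 0.11, adjusted *P*=0.0425 by limma), the only member called higher at an adjusted *P* of at most 0.05. In U1, *Snrpc*, which stabilises pairing with the 5′ splice site, was called higher (log2 fold change 0.44, adjusted *P*=0.0882 by limma), whereas *Snrpa* was called lower. *Snrpa* (chr7:27187005-27196271, minus strand), which encodes the protein that binds a stem-loop of U1 snRNA, measured 21.5, 22.7 and 23.2 RPKM in *Pax9*-null and 26.2, 28.2 and 25.8 RPKM in wild-type libraries. Its libraries were tightly grouped by genotype (0.840-fold, log2 fold change −0.25, standard error 0.08, adjusted *P*=0.0738 by limma). The pseudogene *Snrpert* was called higher (log2 fold change 0.48), but 55.7% of its words of 50 bases occur in other transcripts, and without it the class held 5 called higher and 1 lower with a median of 0.23.

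**Figure D3:**
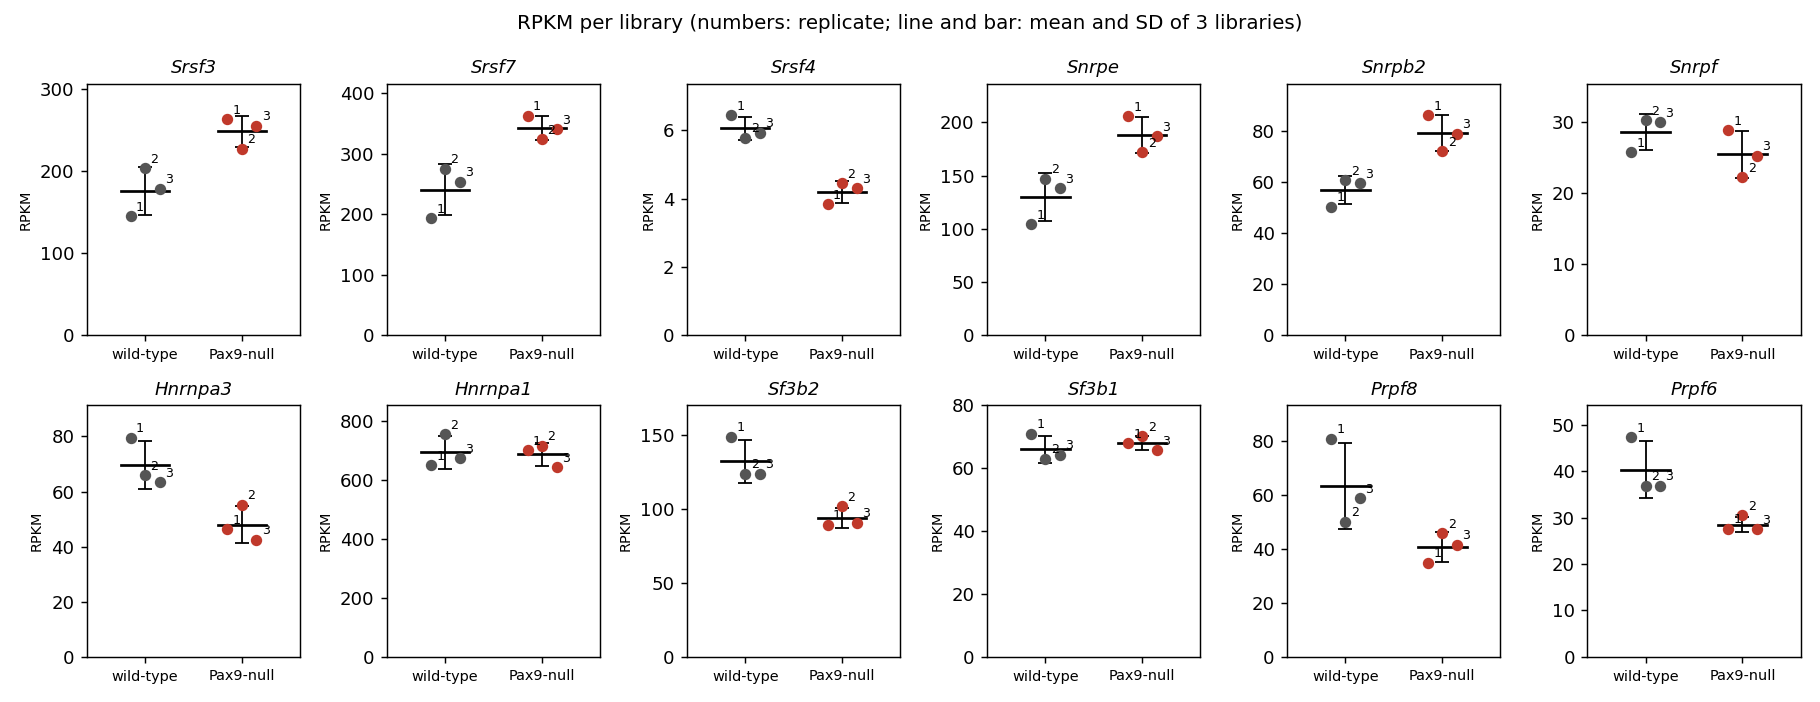
RPKM of 12 members in each library on linear axes from 0. Points are libraries numbered by replicate (grey, wild-type; red, *Pax9*-null), and the line and bar are the mean and SD of the 3 libraries. The genotypes are apart in *Srsf3*, *Srsf7*, *Snrpe* and *Snrpb2* (higher in *Pax9*-null) and in *Srsf4*, *Hnrnpa3*, *Sf3b2*, *Prpf8* and *Prpf6* (lower), and overlap in *Snrpf*, *Hnrnpa1* and *Sf3b1*.

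The SF3A and SF3B complexes belong to the U2 snRNP and hold it at the branch point. Of the 11 SF3 and U2AF genes 0 were called higher (against 14.7% of all tested genes), and 3 were called lower (27.3%, against 12.0%), *Sf3b2*, *Sf3a2* and *Sf3a1*. *Sf3b2* (chr19:5273932-5295455, minus strand), a subunit that contacts the pre-mRNA near the branch point, measured 89.4, 102 and 90.9 RPKM in *Pax9*-null and 149, 124 and 124 RPKM in wild-type libraries. Every *Pax9*-null library was lower than every wild-type one (0.714-fold, log2 fold change −0.49, standard error 0.11, adjusted *P*=0.0414 by limma). *Sf3a2* measured 7.88, 11.1 and 9.51 RPKM in *Pax9*-null and 12.3, 12.8 and 12.4 RPKM in wild-type libraries. The spread was mainly among the *Pax9*-null libraries, with replicate 1 the lowest (0.754-fold, log2 fold change −0.41, standard error 0.13, adjusted *P*=0.0779 by limma). *Sf3a1* had a log2 fold change of −0.32 (adjusted *P*=0.0739 by limma), whereas *Sf3a3*, the third SF3A gene, was at −0.04 and did not pass the test. *Sf3b1*, the large scaffold of SF3B, was at 0.04 (standard error 0.08), with mean levels of 6.09 ± 0.05 (SD, *n*=3) log2 RPKM for *Pax9*-null against 6.04 ± 0.09 (SD, *n*=3) for the wild-type.

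At the other end of this group, *Sf3b6*, whose product lies against the branch point adenosine, measured 137, 109 and 128 RPKM in *Pax9*-null and 88.1, 107 and 106 RPKM in wild-type libraries. The genotypes did not overlap, but *Pax9*-null replicate 2 and wild-type replicate 2 were close, and the gene did not pass the test (log2 fold change 0.31, standard error 0.12, adjusted *P*=0.120 by limma). *U2af1*, the most abundant gene of the group, encodes the U2AF subunit that reads the AG of the 3′ splice site, and measured 171, 161 and 185 RPKM in *Pax9*-null and 142, 166 and 150 RPKM in wild-type libraries. Wild-type replicate 2 lay among the *Pax9*-null libraries (log2 fold change 0.17, standard error 0.10, adjusted *P*=0.253 by limma), with a log2 fold change of −0.08 after quantile normalization. Its partner *U2af2*, which binds the polypyrimidine tract, had a log2 fold change of −0.22 (adjusted *P*=0.106 by limma).

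Of the 13 PRPF genes 1 was called higher (7.69%, against 14.7% of all tested genes) and 5 lower (38.5%, against 12.0%). For the U5 and U4/U6.U5 particles 9 genes were grouped by role. *Prpf18*, *Prpf38a*, *Prpf38b* and *Prpf4b* were counted in, although they need not be fixed parts of these particles. In this group 4 were called lower (44.4%), *Prpf8*, *Prpf6*, *Prpf3* and *Prpf31*. *Prpf38a* was called higher (11.1%), and the median log2 fold change of the group was −0.15. Mutations of the human forms of the 4 genes called lower are known as causes of retinitis pigmentosa. That tie is not set out here for genes not called, such as *Prpf4* (log2 fold change −0.15, adjusted *P*=0.252 by limma). It therefore does not mark the called genes off from the rest. *Prpf8* (chr11:75486816-75509449, plus strand), which encodes the scaffold of the catalytic centre, measured 34.9, 45.8 and 41.6 RPKM in *Pax9*-null and 81, 50.1 and 58.8 RPKM in wild-type libraries. It fell most of all members, and its wild-type values spread more widely than its *Pax9*-null ones with replicate 1 the highest (0.653-fold, log2 fold change −0.61, standard error 0.18, adjusted *P*=0.0642 by limma). *Prpf6* (chr2:181591868-181655660, plus strand), a bridge between U5 and U4/U6, measured 27.6, 30.5 and 27.5 RPKM in *Pax9*-null and 47.4, 36.9 and 36.9 RPKM in wild-type libraries. All *Pax9*-null libraries were the lower (0.710-fold, log2 fold change −0.49, standard error 0.12, adjusted *P*=0.0439 by limma).

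*Prpf38a*, a factor needed to activate the spliceosome, measured 37.2, 31.7 and 36.3 RPKM in *Pax9*-null and 27.8, 29.3 and 29.4 RPKM in wild-type libraries. It was the only PRPF gene called higher (1.21-fold, log2 fold change 0.28, standard error 0.09, adjusted *P*=0.0746 by limma). *Prpf39*, which encodes a protein of the U1 snRNP, measured 15.2, 17.0 and 15.4 RPKM in *Pax9*-null and 14.3, 13.2 and 13.1 RPKM in wild-type libraries. Here the genotypes did not overlap and the gene did not pass the test (log2 fold change 0.23, standard error 0.09, adjusted *P*=0.118 by limma). *Prpf4b*, a kinase of spliceosomal proteins and the most abundant PRPF gene, measured 48.3, 50 and 51.1 RPKM in *Pax9*-null and 61.3, 50.6 and 52.2 RPKM in wild-type libraries. Apart from wild-type replicate 1 its libraries were nearly level (log2 fold change −0.13, standard error 0.09, adjusted *P*=0.351 by limma). *Prpf19*, an E3 ubiquitin ligase that heads its own complex, was called lower (log2 fold change −0.26, adjusted *P*=0.0861 by limma). The remaining PRPF genes did not pass the test, with log2 fold changes from −0.38 (*Prpf40b*) to 0.16 (*Prpf18*).

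hnRNPs coat nascent transcripts, and several repress splice sites. Of their 19 genes 15 did not pass the test, with log2 fold changes from −0.12 to 0.25. *Hnrnpa1*, the most abundant of all 65 members, represses many exons and measured 701, 716 and 644 RPKM in *Pax9*-null and 651, 756 and 674 RPKM in wild-type libraries. The genotypes overlapped (log2 fold change −0.01, standard error 0.13, adjusted *P*=0.952 by limma), although 28.2% of its words of 50 bases occur in other transcripts. *Hnrnpa1* was called lower after quantile normalization (log2 fold change −0.46, adjusted *P*=0.0394 by limma). Its close relative *Hnrnpa3* (chr2:75659261-75669407, plus strand) measured 46.3, 55.3 and 42.5 RPKM in *Pax9*-null and 79.6, 65.9 and 63.5 RPKM in wild-type libraries. All *Pax9*-null libraries were below all wild-type ones (0.689-fold, log2 fold change −0.54, standard error 0.13, adjusted *P*=0.0453 by limma), with 27.1% of its words shared with other transcripts. *Hnrnpul2* (chr19:8820010-8834143, plus strand), a relative of the nuclear matrix protein hnRNP U, measured 12.4, 18.0 and 13.5 RPKM in *Pax9*-null and 28.4, 18.6 and 19.2 RPKM in wild-type libraries. *Pax9*-null replicate 2 was just below wild-type replicates 2 and 3, and wild-type replicate 1 was the highest (0.669-fold, log2 fold change −0.58, standard error 0.20, adjusted *P*=0.0858 by limma). Without that library *Hnrnpul2* was at −0.38 and was not called (adjusted *P*=0.162 by limma). *Hnrnpul1*, of the same family, was called lower too (log2 fold change −0.32, adjusted *P*=0.0694 by limma).

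Highest in fold change among the hnRNP genes were *Hnrnpc* and *Hnrnpll*. *Hnrnpc*, which binds uridine tracts, measured 307, 278 and 302 RPKM in *Pax9*-null and 226, 274 and 247 RPKM in wild-type libraries. The replicates numbered 2 were nearly equal, and the gene did not pass the test (log2 fold change 0.25, standard error 0.11, adjusted *P*=0.149 by limma), with a log2 fold change of −0.12 after quantile normalization. *Hnrnpll*, known for the splicing of CD45 in lymphocytes, measured 26.5, 26.7 and 25.2 RPKM in *Pax9*-null and 20.8, 23.5 and 22.7 RPKM in wild-type libraries. It was the only hnRNP gene called higher (1.17-fold, log2 fold change 0.23, standard error 0.08, adjusted *P*=0.0950 by limma). *Hnrnpk*, *Hnrnpab*, *Hnrnpa2b1*, *Hnrnph1*, *Hnrnpa0*, *Hnrnpm* and *Hnrnpl*, all at a mean of over 100 RPKM, did not pass the test. Their log2 fold changes were 0.21, 0.08, 0.02, 0.10, 0.01, −0.06 and 0.01.

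Among the genes tied to human malformations of the arches, looked up for that role after the values were seen, *Sf3b2* fell as above. *Eftud2*, the U5 GTPase, measured 25.4, 29.4 and 28.4 RPKM in *Pax9*-null and 39.2, 34.5 and 32.5 RPKM in wild-type libraries, and was called lower (log2 fold change −0.35, standard error 0.10, adjusted *P*=0.0614 by limma). After the length and GC trends were taken out *Eftud2* was at −0.11 and was not called (adjusted *P*=0.407 by limma). *Sf3b4* had a log2 fold change of −0.22 (adjusted *P*=0.126 by limma), with 43.6% of its words of 50 bases found in other transcripts. *Snrpb* was at 0.15 (adjusted *P*=0.394 by limma).

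Fold changes ran with gene length and GC content. Over the 65 members their Spearman correlation (rho) was −0.24 with exonic length and −0.41 with GC content, and over the 13524 tested genes with an annotation it was −0.40 and −0.41, as descriptions across genes that share libraries. The median exonic length was 2335 bp for snRNP genes, 3774 bp for SR protein genes, 5550 bp for SF3, U2AF and PRPF genes and 5842 bp for hnRNP genes. The median GC contents were 47.0%, 42.9%, 46.9% and 44.1%. Genes of 56 to 1371 bp had a median log2 fold change of 0.55 over all tested genes, and those of 9682 bp or more one of −0.20. The members' medians lay on either side of those of all tested genes. In the shortest band the median was 0.15 for 2 members against 0.55 for all tested genes, from 1372 to 2138 bp it was 0.37 for 5 members against 0.15, from 3445 to 4170 bp it was −0.11 for 6 members against −0.02, and in the longest band it was 0.06 for 6 members against −0.20.

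When each library was freed of its trends with exonic length and GC, 0 members were called higher (against 1.77% of all tested genes) and 5 lower (against 1.98%). The class medians became 0.07 for SR protein genes, 0.00 for snRNP genes, −0.03 for hnRNP genes and −0.07 for SF3, U2AF and PRPF genes. Called after this step were *Hnrnpa3* (log2 fold change −0.80, adjusted *P*=0.0494 by limma), *Prpf6* (−0.41, adjusted *P*=0.0990 by limma) and *Sf3b2* (−0.35, adjusted *P*=0.0671 by limma), all called lower before. The other 2 were the shortest members, *Snrpf* and *Snrpert*, at 861 and 279 bp. *Snrpf* had not been called before (now −1.11, adjusted *P*=0.0202 by limma). *Snrpert* had been called higher before and was called lower after it (log2 fold change −0.75, adjusted *P*=0.0247 by limma). *Srsf3* did not pass the test, with a log2 fold change of 0.43 (adjusted *P*=0.160 by limma), or of 0.30 when the gene length implied by the values was used (adjusted *P*=0.194 by limma). *Srsf7* went to 0.23, or to 0.09 with the implied length, *Prpf8* to −0.32, *Srsf4* to −0.31, *Snrpe* to 0.15 and *Prpf38a* to 0.00, and none of them passed the test. *Snrpb2* went from 0.48 to 0.11 and was no longer called (adjusted *P*=0.385 by limma). *Snrpd1* went to 0.01, and with the implied length its call turned from higher to lower (log2 fold change −0.36, adjusted *P*=0.0575 by limma). With that length 3 members not called before were called lower, *Sf3b6* (log2 fold change −0.45, adjusted *P*=0.0419 by limma), *U2af1* (−0.34, adjusted *P*=0.0590 by limma) and *Hnrnpa1* (−0.43, adjusted *P*=0.0771 by limma), beside *Snrpf*. After quantile normalization *Srsf3* was still called higher, at 0.24 (adjusted *P*=0.0883 by limma), whereas *Srsf7* at 0.17 (adjusted *P*=0.217 by limma) and *Snrpd1* at 0.18 (adjusted *P*=0.174 by limma) were not.

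**Figure D4:**
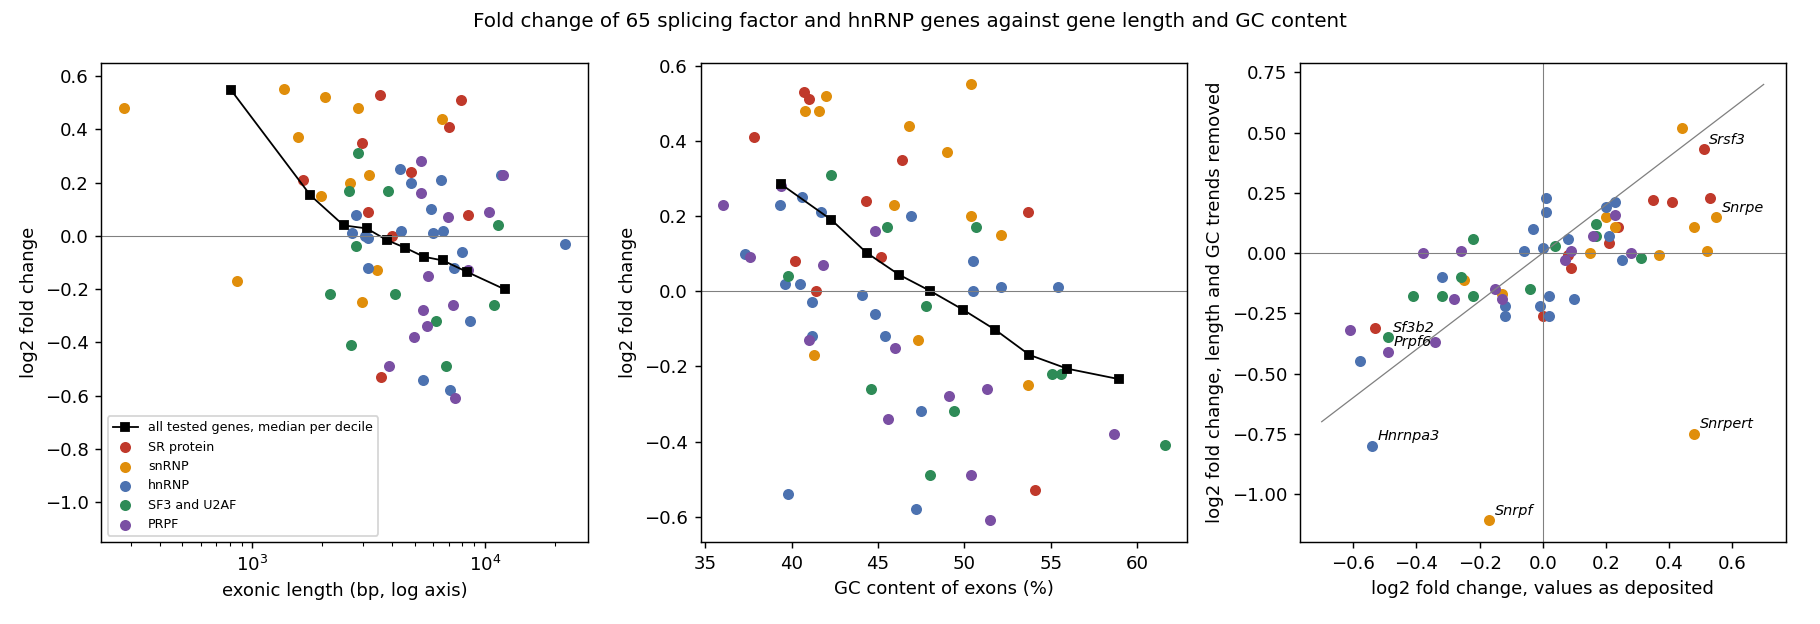
Log2 fold change of the 65 members against exonic length (left, log axis) and GC content (middle), with black squares for the median of all tested genes per decile, and (right) fold changes after removal of the trends against those as deposited, with the line of equality. All-gene medians fall from 0.55 in the shortest to −0.20 in the longest decile, and the right panel shows the called SR protein, snRNP and PRPF genes mostly nearer to 0 after the removal, with *Hnrnpa3*, *Snrpf* and *Snrpert* at −0.75 or below.

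Other genes of the pathway were taken from a list of 116 splicing genes outside the naming rule, of which 111 had a row. Of these, 17 were called higher (15.3%, against 14.7% of all tested genes) and 20 lower (18.0%, against 12.0%), 54 had a log2 fold change above 0 and 57 one below, and the median was −0.01. *Sart1*, needed to build the tri-snRNP, measured 9.24, 12.6 and 10.1 RPKM in *Pax9*-null and 21, 17.4 and 17.0 RPKM in wild-type libraries. It was the lowest of the list (log2 fold change −0.80, standard error 0.14, adjusted *P*=0.0266 by limma), with the genotypes well apart. *Dhx8*, the helicase that releases spliced mRNA, measured 12.5, 14.7 and 12.5 RPKM in *Pax9*-null and 29.8, 19.7 and 19.7 RPKM in wild-type libraries. Again no library overlapped (log2 fold change −0.78, standard error 0.17, adjusted *P*=0.0414 by limma). *Srrm2*, a scaffold of nuclear speckles, measured 10.2, 15.5 and 13.4 RPKM in *Pax9*-null and 28.9, 15.4 and 21.5 RPKM in wild-type libraries. It passed the test although *Pax9*-null replicate 2 lay just above wild-type replicate 2 (log2 fold change −0.72, standard error 0.24, adjusted *P*=0.0810 by limma).

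On the higher side, *Lsm5*, of the ring that binds U6 snRNA, measured 140, 107 and 131 RPKM in *Pax9*-null and 57.2, 89.0 and 79.0 RPKM in wild-type libraries. It had the largest rise of the list (log2 fold change 0.76, standard error 0.18, adjusted *P*=0.0429 by limma), but after the length and GC trends were taken out it was called lower in *Pax9*-null embryos, at −0.33 (adjusted *P*=0.0863 by limma). *Rnpc3*, of the minor spliceosome, measured 6.85, 6.88 and 6.83 RPKM in *Pax9*-null and 4.18, 5.04 and 5.39 RPKM in wild-type libraries. Its *Pax9*-null libraries were almost identical and above all wild-type ones (log2 fold change 0.50, standard error 0.13, adjusted *P*=0.0482 by limma). *Snrnp27*, of the tri-snRNP, measured 56.2, 43.7 and 49.1 RPKM in *Pax9*-null and 28.9, 38.3 and 39.1 RPKM in wild-type libraries, again without overlap (log2 fold change 0.49, standard error 0.14, adjusted *P*=0.0630 by limma). With the trends taken out *Rnpc3* (0.23), *Snrnp27* (0.07) and *Srrm2* (−0.30) were no longer called, whereas *Sart1* (−0.49) and *Dhx8* (−0.64) were. Without wild-type replicate 1 *Srrm2* (−0.50) and *Snrnp27* (0.35) did not pass the test.

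Genes for ribosomal proteins, measured beside the members as a class of short and abundant transcripts, showed 42 of 79 called higher (53.2%, against 14.7% of all tested genes) and 0 lower, with a median log2 fold change of 0.43. After quantile normalization 11 were called higher (against 10.6% of all tested genes) and 2 lower (against 12.9%), with a median of 0.11. Their summed level was between 26003 and 29281 RPKM in *Pax9*-null and between 17214 and 24730 RPKM in wild-type libraries, with wild-type replicate 1 again the lowest. Their median length was 1770 bp, and after the length and GC trends were taken out their median was 0.19. In that fit 0 were called in either direction, against 1.77% higher and 1.98% lower of all tested genes. Of 52 genes for translation initiation factors 12 were called higher (23.1%, against 14.7% of all tested genes) and 5 lower (9.62%, against 12.0%), with a median of 0.09. After quantile normalization 7 initiation factor genes were called higher (against 10.6% of all tested genes) and 13 lower (against 12.9%), with a median of −0.08. Without the length and GC trends 2 were called higher (against 1.77%) and 1 lower (against 1.98%).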

How the data were processed

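RNA-seq libraries came from the dissected pharyngeal region of E9.5 embryos, 3 *Pax9*-null and 3 wild-type, grouped by the sample titles. The labels describe cell sorting, the Smart-seq2 protocol and a different sequencer, the study's methods whole tissue and first-strand libraries, and the methods were followed. By the authors' description, with tool versions from the submitters' processing notes, reads were trimmed (Trimmomatic 0.32), kept where unique and non-redundant, sub-sampled towards the smallest library, aligned to GRCm38 with STAR (2.5.1a) and assigned to Ensembl genes by featureCounts (1.5.1) with default parameters, which ignore strand. The values deposited by the authors are log2 RPKM, from −7.15 to 11.02, and were used as deposited. Fitted to the values, they hold a prior count of 0.5 and effective library sizes of 11509904 to 12692324, and 82.7% of values were within 0.05 of a whole read at the GENCODE M21 exonic length. Whole reads were recovered for 14552 of 14647 genes after a search of lengths, with 844 genes allowing more than 1 length. Reads per library (*Pax9*-null 1 to 3, then wild-type 1 to 3) were 11827284, 11632551, 11714469, 12681317, 12218355 and 12083882.

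Genotypes were compared with limma 3.58.1 (R 4.3.3), two-sided and with a variance trend, without covariates, over the 13547 genes whose mean reached 0.5 RPKM. Benjamini-Hochberg adjustment ran over all of these, and genes at 0.1 or less were called higher or lower. Fold changes (*Pax9*-null over wild-type) are on the log2(RPKM) scale with the authors' prior count, and RPKM values are 2 to the power of the deposited value. Named genes are, in each class, the 2 highest and 2 lowest fold changes and the highest mean RPKM, and in the list of other splicing genes the 3 highest and 3 lowest called. The members and lists were chosen with earlier results of these data known. Alternatives were other pseudocounts, filters, scalings, limma with voom on the recovered reads, a replicate block, library weights, omission of each library, and removal of splines (5 degrees of freedom) of exonic length and GC content from each library. The pipeline was tested on simulated data with independent noise, no length or GC trends and changes larger than those of the members. That test does not show how well changes of the members' size are called. Replicates are labelled as biological. Whether they came from separate litters is not given in the sources used here.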

Additional observations from a re-analysis of the deposited data

How the results depend on the processing

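Members called higher (11) and lower (13) became 4 and 16 with quantile normalization, 7 and 5 without the variance trend, 0 and 5 when length and GC trends were removed (0 and 9 with the gene length implied by the values, an alternative chosen after seeing the data), and 1 and 4 at an adjusted *P* of 0.05. With one library left out they ran from 0 to 12 and from 0 to 10, at 0 without *Pax9*-null replicate 1 or 3. All genes called (3611) became 508 and 682 with the trends removed by the 2 lengths, 1335 at 0.05, and 175 to 3578 by omission of a library. Other splicing genes called higher (17) and lower (20) became 9 and 31 with quantile normalization, 9 and 10 without the variance trend, 0 and 4 or 0 and 9 with the trends removed, 5 and 9 at 0.05, and 0 to 15 and 0 to 19 by omission of a library. Of the class medians, that of SR protein genes became 0.07 with quantile normalization and 0.07 or 0.08 with the trends removed, that of hnRNP genes −0.19 with quantile normalization and −0.10 with the implied length, that of snRNP genes 0.00 or 0.04 with the trends removed, and that of SF3, U2AF and PRPF genes −0.07. The cause of these shifts was not tested. Other pseudocounts, no filter, a filter at 5 RPKM, median centring, library weights and voom kept each of these counts within 1.5 times and each median within 1 SD between libraries.

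Of 521 values of the 29 named genes under these alternatives, 383 kept their direction and side of the threshold, 110 lost and 10 gained a call in the same direction and 18 changed sign. The latter were *U2af1* (−0.08) and *Hnrnpc* (−0.12) with quantile normalization, *Srsf5* with median centring (0.03) and without *Pax9*-null replicate 1 (0.04) or 2 (0.01) or wild-type replicate 2 (0.02; −0.06 to 0.04 over the 6 omissions), *Hnrnpa1* with median centring (0.02), without *Pax9*-null replicate 3 (0.03) and without wild-type replicate 2 (0.05; −0.06 to 0.05 over the 6 omissions), *Sf3b6* (−0.02), *Hnrnpc* (−0.03) and *Lsm5* (−0.33, called lower) with the trends removed, and *Prpf39* (−0.13), *Hnrnpc* (−0.08) and, all called lower, *U2af1* (−0.34), *Sf3b6* (−0.45), *Snrpd1* (−0.36) and *Lsm5* (−0.31) with the implied length. The causes were not tested.

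Whether the replicate numbers pair the samples is not known. The deviations of same-numbered libraries correlated at −0.02, −0.17 and 0.26, and those of differently numbered libraries at between −0.35 and 0.36. With 3 libraries per genotype these values cannot decide it. With the number as a replicate block, 1 member was called higher and 4 lower, of the other splicing genes 2 and 5, and of all genes 1377. With 25 to 42 reads per library, *Srsf12* had the least depth of the members, and its standard error of 0.26 could hide changes as large as those of the called members.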

Other observations

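The minor spliceosome, which removes a small class of introns with its own U11 and U12 snRNPs, had 7 genes in the list of other splicing genes, picked out here after their values were seen. *Rnpc3* and *Zcrb1* were called higher in *Pax9*-null embryos and *Snrnp35* lower. Of all tested genes 14.7% were called higher and 12.0% lower. With the length and GC trends taken out, *Zcrb1* was at 0.16 (adjusted *P*=0.368 by limma) and *Snrnp35* at −0.57 (adjusted *P*=0.108 by limma). Neither was then called, and nor was *Rnpc3*, as above. *Zcrb1* measured 21.3, 17.2 and 21.5 RPKM in *Pax9*-null replicates 1 to 3 and 13.4, 16.1 and 15.6 RPKM in wild-type replicates 1 to 3 (log2 fold change 0.41, standard error 0.12, adjusted *P*=0.0648 by limma). *Snrnp35*, a U11/U12 protein, measured 9.58, 9.45 and 10 RPKM in *Pax9*-null and 14.6, 11.6 and 11.9 RPKM in wild-type libraries (log2 fold change −0.38, standard error 0.11, adjusted *P*=0.0640 by limma). The genotypes did not overlap in either gene. *Snrnp25*, *Snrnp48*, *Pdcd7* and *Zrsr2* did not pass the test, with log2 fold changes of 0.33, 0.29, 0.09 and 0.09.

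The kinases that phosphorylate SR proteins and the related *Tra2* genes were not called, in a table where 26.7% of all tested genes were. *Srpk1* and *Srpk2* had log2 fold changes of −0.17 and −0.27, *Clk1* to *Clk4* 0.35, −0.03, −0.04 and 0.26, and *Tra2a* and *Tra2b* 0.33 and 0.19. *Tra2a* was nearest to the threshold (adjusted *P*=0.108 by limma), at 51.4, 47.2 and 38.5 RPKM in *Pax9*-null and 33.3, 39.7 and 35.8 RPKM in wild-type libraries, with *Pax9*-null replicate 3 below wild-type replicate 2.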
